A study of Mus musculus with 6 samples.

Results

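The genes described here regulate apoptosis, the ordered self-destruction of a cell. They are 9 of the 10 written members of a set made of the Bcl2 protein family and the death receptor Fas, out of 19938 genes measured. A member was taken from the probesets whose array annotation gave its symbol alone, and where several carried it the brightest on average was to be used, although each of the 9 had a single such probeset. The pore-forming gene Bax is not analysed here because no probeset carried its symbol. The samples were E14 mouse embryonic stem cells, an established line grown with the cytokine leukemia inhibitory factor and serum on growth-arrested embryonic fibroblasts, so that feeder RNA could be present in every sample. The groups were cells exposed to 0.5 mM valproic acid (VPA) for 16 h, cells exposed to 0.2 mM sodium butyrate (NaBu) for 16 h, and untreated control cells, with 2 samples each. Both compounds are short-chain fatty acids that inhibit histone deacetylases, and the question was how a low level of each alters expression in stem cells.

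Apoptosis through mitochondria is decided by contacts between members of the Bcl2 family. The anti-apoptotic proteins Bcl2, Bcl2l1 (Bcl-xL) and Mcl1 hold the pore-forming proteins Bax and Bak1 in check, and the BH3-only proteins Bbc3 (Puma), Bcl2l11 (Bim), Bmf and Bid relieve that check or activate the pore formers. Fas is a receptor at the cell surface that starts the extrinsic route through an adaptor and an initiator caspase, and Bid, once cleaved, links that route to mitochondria. Mouse embryonic stem cells are known to be primed for apoptosis, and Mcl1 is needed for survival of the early mouse embryo.

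All values are log2 expression, so a difference of 1 is a doubling, and values of different probesets are not set against each other because probes differ in brightness. Differences were tested with limma over all 19938 genes with Benjamini-Hochberg adjustment at a threshold of 0.05, and intervals are 95% intervals of that model. It left the replicate number out, and a fit with the replicate number as a block was an alternative. The labels number the replicates 1 and 2 without saying that they are separate cultures, so the tests measure only the spread between these samples. Differences within replicate number 1 and within replicate number 2 are given beside the pooled ones because same-numbered arrays deviated together.

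Markers of pluripotent cells and of fibroblasts are given as ranges, and the 2 kinds are not ranked against each other. The 12 pluripotent cell markers had log2 values from 7.87 to 12.72 over the 6 arrays, and the 19 measured fibroblast markers from 2.93 to 12.3. The fibroblast markers had a mean log2 value of 6.86 and 7.74 with VPA, 7.11 and 7.78 with NaBu and 7.03 and 7.55 in control cells, in the order replicate 1, replicate 2. The highest fibroblast marker value was that of Vim. The lowest value was 2.93, of Lum, under the 25th percentile of all genes, which lay between 3.90 and 3.95 on the 6 arrays. In bulk RNA, fewer cells of a type and less RNA per cell cannot be told apart. Replicate 2 had the higher value for 17 of 19 fibroblast markers with VPA, 18 with NaBu and 17 in control cells. It had the higher value for only 4 of 12 pluripotent cell markers with VPA, 2 with NaBu and 2 in control cells.

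No member passed the test in any comparison. For VPA against control limma called 0 of the 9 members, at adjusted p between 0.964 and 0.998, and 0% of all genes. At an unadjusted p under 0.05 there was 1 member, Bak1, against 4.92% of all genes. For NaBu against control limma called 0 of 9 and 0% of all genes, and at an unadjusted p under 0.05 it had 0 members against 1.56% of all genes. With the replicate number as a block limma again called 0 members, and at an unadjusted p under 0.05 it had 3 for VPA (Bak1, Bcl2l11 and Fas), against 13.2% of all genes, and 0 for NaBu, against 4.59%. The median difference of the members was 0.08 for VPA and 0.02 for NaBu, against 0.01 for all genes in both comparisons. The unblocked intervals of the members, not adjusted for the number of genes, reached between 0.28 and 0.53 to either side of the difference.

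**Figure D1:**
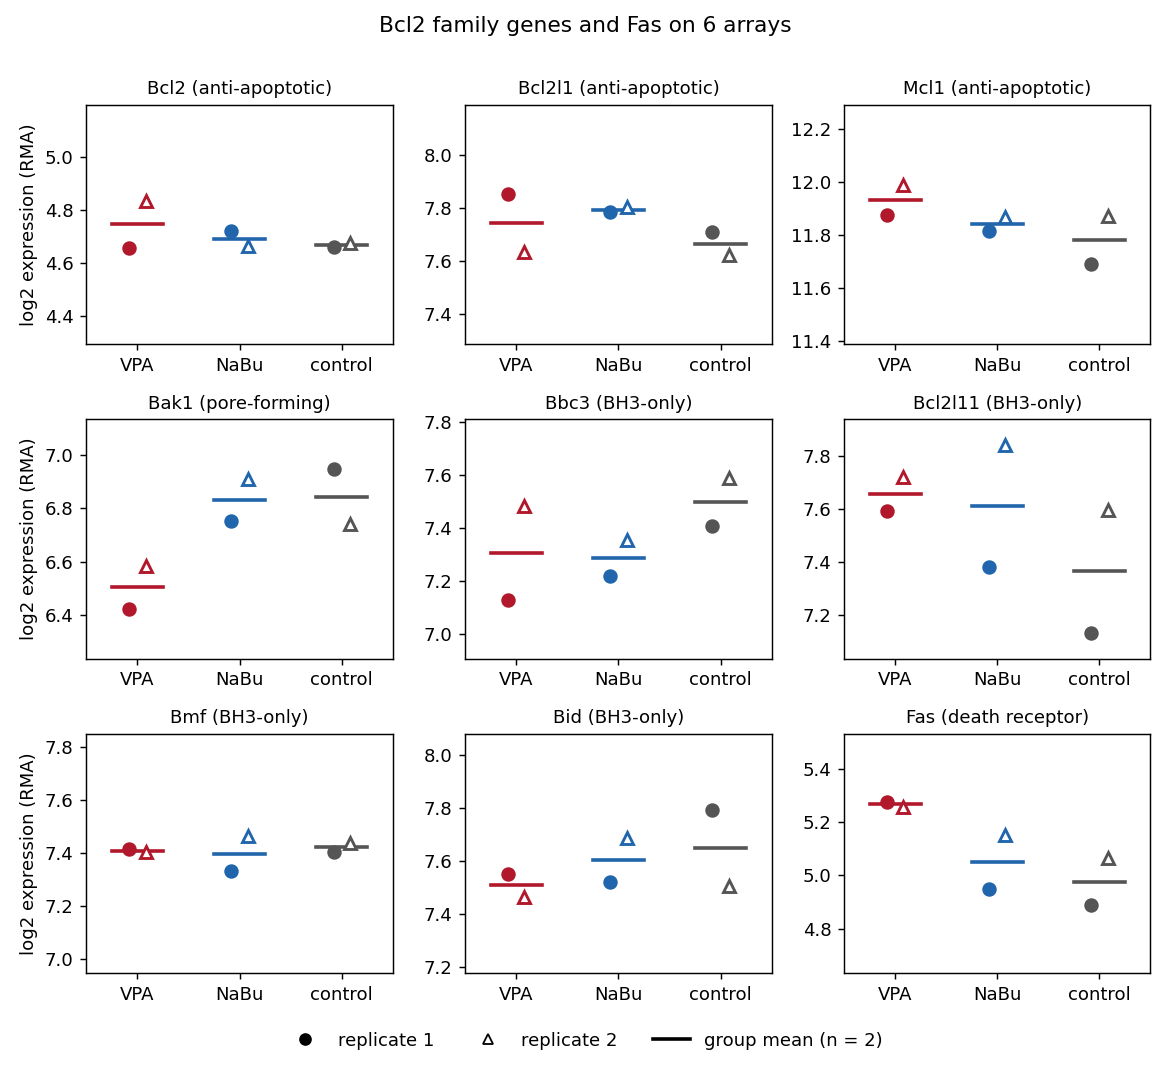
Log2 expression (RMA) of the 9 measured genes on each array, in cells with VPA, with NaBu and without treatment (control); circles are replicate 1, triangles replicate 2 and bars group means of 2 arrays, and every panel spans the same range of log2 values. The VPA arrays lie below every control array for Bak1 and above every control array for Fas and Mcl1, while the arrays of Bmf lie within 0.13 of each other.

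None of the 3 anti-apoptotic genes passed the test with either compound, and 4 of their 6 differences from control changed sign when 1 array was left out. Mcl1, a short-lived guardian protein that binds Bak1, had log2 values of 11.87 and 11.99 with VPA, 11.81 and 11.87 with NaBu, and 11.69 and 11.87 in control cells. Both VPA arrays lay above both control arrays, but the lower VPA array and the higher control array both round to 11.87, and the NaBu arrays overlapped with control. The log2 difference was 0.15 for VPA (95% interval -0.15 to 0.45), with 0.18 within replicate 1 and 0.12 within replicate 2. It was 0.06 without control replicate 1, 0.09 without VPA replicate 2, 0.24 without control replicate 2 and 0.23 after quantile normalization. For NaBu it was 0.06 (95% interval -0.24 to 0.36), 0.10 after quantile normalization, and -0.03 when control replicate 1 was left out.

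Bcl2l1, which holds back both pore formers, had log2 values of 7.85 and 7.64 with VPA, 7.78 and 7.80 with NaBu, and 7.71 and 7.62 in control cells. Both NaBu arrays lay above both control arrays, and the VPA and control arrays overlapped. Against control this was a log2 difference of 0.13 for NaBu (95% interval -0.18 to 0.43), with 0.07 and 0.18 within replicates 1 and 2 and between 0.08 and 0.17 when any 1 array was left out. For VPA it was 0.08 (95% interval -0.23 to 0.39), and -0.03 when VPA replicate 1 was left out.

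Bcl2, the founding member of the family, had log2 values of 4.66 and 4.83 with VPA, 4.72 and 4.66 with NaBu, and 4.66 and 4.67 in control cells. All 6 arrays lay within 0.17 of each other and the groups overlapped. The log2 difference was 0.08 for VPA (95% interval -0.21 to 0.37) and 0.02 for NaBu (95% interval -0.26 to 0.31). It was -0.01 for VPA without VPA replicate 2 and -0.003 for NaBu without NaBu replicate 1.

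Bak1 had the largest difference of the 9 members with VPA, toward lower values. Bak1 sits in the outer mitochondrial membrane and, once active, forms the pore that releases cytochrome c. Its log2 values were 6.42 and 6.58 with VPA, 6.75 and 6.91 with NaBu, and 6.95 and 6.74 in control cells. Both VPA arrays lay below all other arrays, and the NaBu and control arrays overlapped. Against control, the mean log2 difference was -0.34 for VPA (95% interval -0.68 to -0.01, a fold of 0.789), at an adjusted p of 0.964 in limma. It was -0.53 within replicate 1 and -0.16 within replicate 2, and between -0.45 and -0.24 when any 1 array was left out. For NaBu it was -0.01 (95% interval -0.35 to 0.32), with -0.20 and 0.17 within the replicate numbers, and 0.09 without control replicate 1 and 0.07 without NaBu replicate 1. In RefSeq, Bak1 on the minus strand of chromosome 17 lies inside the span of Ggnbp1 on the plus strand, and the sources used here do not say whether the probes tell the strands apart.

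None of the BH3-only members passed the test with either compound, and their differences from control did not share a sign. Bcl2l11, which encodes Bim, an activator of both pore formers, had the widest spread of the members, with log2 values of 7.59 and 7.72 with VPA, 7.38 and 7.84 with NaBu, and 7.13 and 7.60 in control cells. Control replicate 1 was the lowest array and NaBu replicate 2 the highest, and each compound's arrays overlapped with control. Within a replicate number each compound stood above control, by 0.46 and 0.12 for VPA and by 0.25 and 0.24 for NaBu. The log2 difference was 0.29 for VPA (95% interval -0.24 to 0.82) and 0.25 for NaBu (95% interval -0.28 to 0.77). Without control replicate 1 these were 0.06 and 0.01.

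Bbc3, which encodes Puma, a BH3-only protein best known as a target of p53, had log2 values of 7.13 and 7.48 with VPA, 7.22 and 7.35 with NaBu, and 7.41 and 7.59 in control cells. Both NaBu arrays lay below both control arrays, and VPA replicate 2 lay between the control arrays. Pooled over replicates, the log2 difference was -0.19 for VPA (95% interval -0.58 to 0.20), with -0.28 and -0.10 within replicates 1 and 2. For NaBu it was -0.21 (95% interval -0.60 to 0.18), with -0.19 and -0.23, and between -0.30 (without control replicate 1) and -0.12 (without control replicate 2) when 1 array was left out. Without VPA replicate 1 the VPA difference was -0.01, and without VPA replicate 2 it was -0.37.

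Bid, the link between death receptors and mitochondria, had log2 values of 7.55 and 7.47 with VPA, 7.52 and 7.69 with NaBu, and 7.79 and 7.51 in control cells. Control replicate 1 was the highest array, and both compounds overlapped with control. The log2 difference was -0.14 for VPA (95% interval -0.49 to 0.21) and -0.05 for NaBu (95% interval -0.40 to 0.30). For NaBu the differences within the replicate numbers had opposite signs, -0.27 and 0.18. Without control replicate 1 the differences were 0.0004 for VPA and 0.10 for NaBu.

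Bmf, a BH3-only protein tied in mouse and human cells to loss of attachment, had the narrowest spread, from 7.33 to 7.46 over the 6 arrays. Its log2 values were 7.41 and 7.40 with VPA, 7.33 and 7.46 with NaBu, and 7.40 and 7.44 in control cells. The groups overlapped, and the log2 differences were -0.01 for VPA (95% interval -0.29 to 0.26) and -0.02 for NaBu (95% interval -0.30 to 0.25). They were 0.003 for VPA without control replicate 2 and 0.04 for NaBu without NaBu replicate 1.

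Fas, the death receptor, had the largest difference toward higher values with VPA, close to that of Bcl2l11. Its log2 values were 5.28 and 5.26 with VPA, 4.95 and 5.15 with NaBu, and 4.89 and 5.06 in control cells. Both VPA arrays lay above all other arrays, and the NaBu and control arrays overlapped. Over both replicates the log2 difference was 0.29 for VPA (95% interval -0.03 to 0.61, a fold of 1.22), at an adjusted p of 0.964 in limma. It was 0.39 within replicate 1 and 0.19 within replicate 2, and between 0.20 and 0.38 when any 1 array was left out. For NaBu it was 0.08 (95% interval -0.24 to 0.39), with 0.06 and 0.09 within replicates 1 and 2, and -0.01 without control replicate 1 and -0.03 without NaBu replicate 2.

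The sequence before the start site is shown for Fas, the member with the largest VPA difference toward higher values, and for Bcl2, the gene that gave the family its name; neither passed the test. Both are read 5′ to 3′ from RefSeq on GRCm38.p6 and end at the base before the first annotated start of the gene. The Fas stretch is chr19:34290409-34290646 on the plus strand (238 bases), and the Bcl2 stretch is chr1:106714291-106714540 on the minus strand (250 bases). Capitals mark GGGCGG or its reverse complement, the GC box bound by Sp1 and related factors.
Fas: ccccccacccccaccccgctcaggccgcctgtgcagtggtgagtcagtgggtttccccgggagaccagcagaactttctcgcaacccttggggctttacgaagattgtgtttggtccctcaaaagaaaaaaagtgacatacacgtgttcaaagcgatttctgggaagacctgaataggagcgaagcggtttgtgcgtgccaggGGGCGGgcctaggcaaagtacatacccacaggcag
Bcl2: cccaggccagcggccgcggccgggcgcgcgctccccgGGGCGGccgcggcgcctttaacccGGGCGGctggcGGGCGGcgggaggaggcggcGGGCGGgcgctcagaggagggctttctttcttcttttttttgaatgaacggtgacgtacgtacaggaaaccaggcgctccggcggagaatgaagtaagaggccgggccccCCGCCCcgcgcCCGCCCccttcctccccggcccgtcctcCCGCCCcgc
The Fas stretch held 1 GC box and 11 CpG dinucleotides with a GC content of 56.7%, and the Bcl2 stretch 7 GC boxes and 36 CpG dinucleotides with a GC content of 74.8%. Over the 32851 RefSeq windows of 250 bases before a start site, 32.7% held a GC box on either strand, and the medians were 6 CpG dinucleotides and a GC content of 52.4%. The E-box CACGTG, bound by Myc and its relatives, was found once in the Fas window and not in that of Bcl2, against 6.02% of all windows, and it overlapped no GC box. TATAAA, searched on both strands, was found in neither, against 12.4% of all windows. RefSeq windows were found for all 10 written members, 17 in all, and the one that ends at the first start of Bak1 held 0 GC boxes and 8 CpG dinucleotides. The string TGTTTAC, bound by forkhead factors such as Foxo3, was found once in the window before the first start of Bcl2l11. That window lies inside the RefSeq span of Acoxl. The same string was found once in 1 of the 3 windows of Bbc3, all of which lie inside the annotated span of Bbc3 itself. The Bbc3 window with the match precedes a start site 1863 bases into that span. No other window of a member held the string, against 3.17% of all windows. A match is a string of letters and not a bound site.

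**Figure D2:**
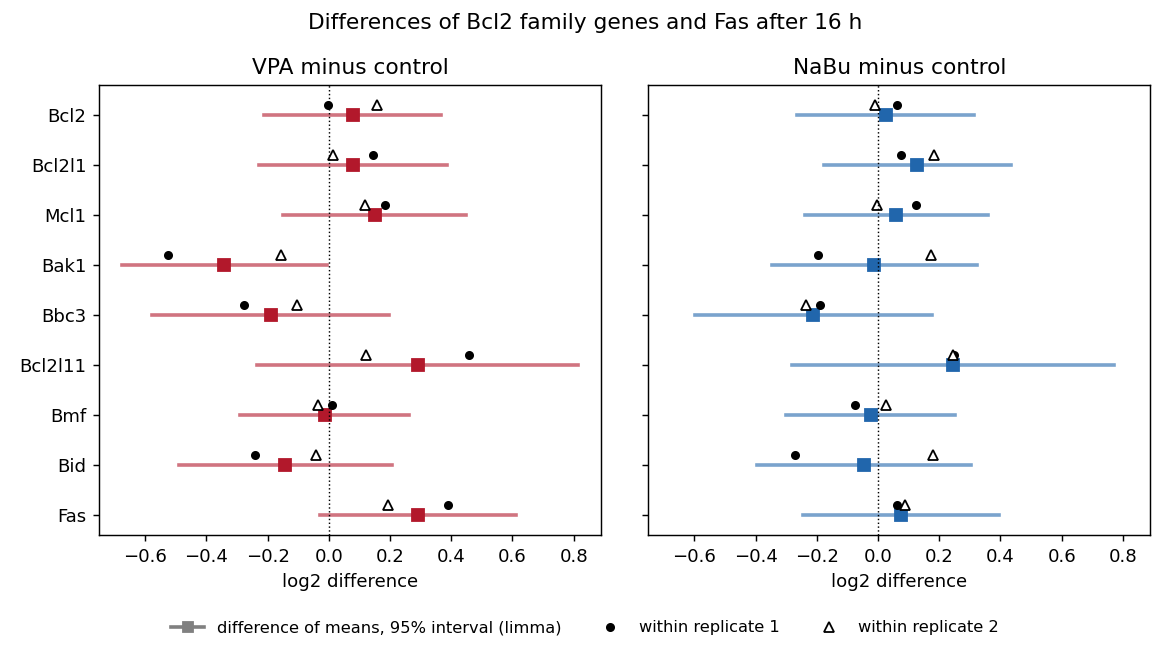
Log2 differences of the 9 genes from control for VPA (left) and NaBu (right); squares are differences of group means with 95% limma intervals, circles are differences within replicate 1 and triangles within replicate 2. The intervals are those without the replicate block, and that of Bak1 with VPA, -0.68 to -0.01, is the only one drawn that does not reach 0. With the block, those of Fas (0.03 to 0.55) and Bcl2l11 (0.0003 to 0.58) with VPA did not reach 0 either. No gene passed after adjustment over all genes in either fit.

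Members that kept a direction against control were 7 with VPA and 4 with NaBu. With VPA, 4 of 9 members stood above control within both replicate numbers (Bcl2l1, Mcl1, Bcl2l11 and Fas), against 32% of all genes, and 3 stood below in both (Bak1, Bbc3 and Bid), against 28%. The VPA and control arrays did not overlap for 3 of 9 members (Mcl1, Bak1 and Fas), against 34.7% of all genes. With NaBu, 3 members stood above control within both replicate numbers (Bcl2l1, Bcl2l11 and Fas), against 29.1%, and 1 stood below (Bbc3), against 23.1%. The NaBu and control arrays did not overlap for 2 members (Bcl2l1 and Bbc3), against 23.9%. VPA and NaBu share the control samples, so their differences from control are not independent.

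The difference between replicate numbers was as large as that between treatments for several members. Averaged over the 3 groups, Bcl2l11 stood higher in replicate 2 by 0.35, Bbc3 by 0.22 and Mcl1 by 0.12, each in all 3 groups. The other 6 members changed sign between groups, as Bak1 did with 0.16 with VPA, 0.16 with NaBu and -0.21 in control cells. The mean replicate difference is signed, so groups of opposite sign cancel in it, as for Bak1 (mean 0.04) and Bid (mean -0.07). This signed mean exceeded the VPA difference in size for 4 of 9 members (Bcl2l1, Bbc3, Bcl2l11 and Bmf). It exceeded the NaBu difference for 8 of 9, the exception being Bcl2l1. Most fibroblast markers were also higher, and most pluripotent cell markers lower, in replicate 2 in every group, as given above. The part of these marker differences in the replicate difference of Bcl2l11, Bbc3 and Mcl1 was not tested. Over the 6 arrays the range of a member ran from 0.13 for Bmf to 0.71 for Bcl2l11, which is a fold of 1.64.

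**Figure D3:**
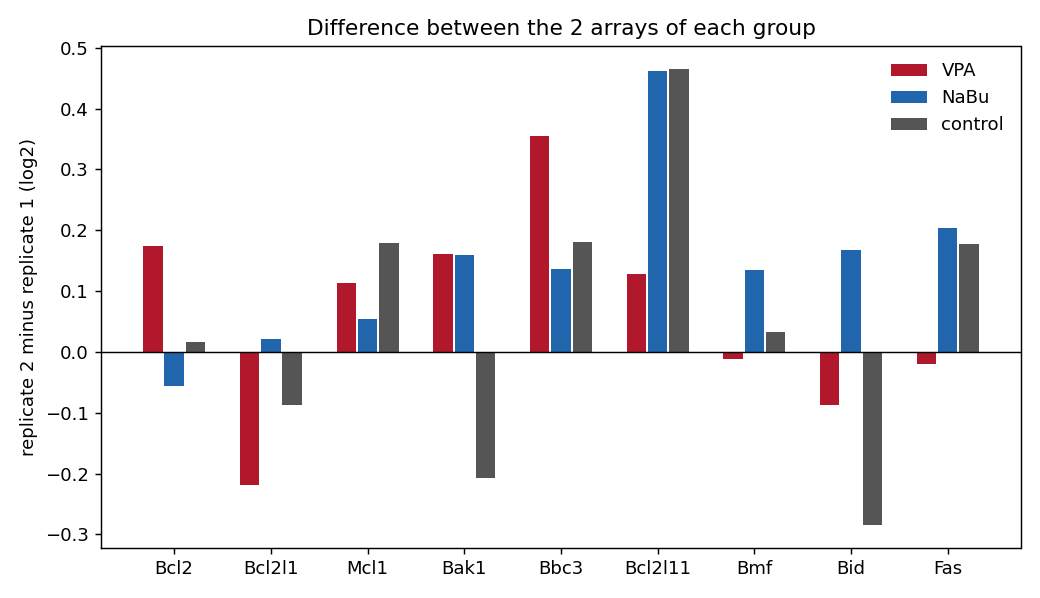
Replicate 2 minus replicate 1 in log2 expression for each of the 9 genes, with a bar per group (VPA, NaBu and control). Bcl2l11 is higher in replicate 2 by 0.13 with VPA, 0.46 with NaBu and 0.47 in control cells, and Bid is lower in replicate 2 by 0.09 with VPA and 0.28 in control cells but higher by 0.17 with NaBu.

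The compounds were given at different concentrations, 0.5 mM VPA and 0.2 mM NaBu, so a difference between them is one between these exposures. limma called 0 of 9 members for VPA against NaBu (adjusted p 0.998 for each) and 0% of all genes, with 0 members at an unadjusted p under 0.05 against 3.63% of all genes (with the block 1, Bak1, against 10.8%). Bak1 had a log2 difference of -0.33 between VPA and NaBu (95% interval -0.66 to 0.005), with -0.33 within each replicate number. Fas had 0.22 (95% interval -0.10 to 0.54), with 0.33 and 0.10, and Mcl1 had 0.09 (95% interval -0.21 to 0.39). Without NaBu replicate 1 the Fas difference was 0.11, and without VPA replicate 2 the Mcl1 difference was 0.03. The arrays of the compounds did not overlap for these 3 members, against 30.7% of all genes. Bcl2l11 had 0.04 (95% interval -0.48 to 0.57) and Bbc3 0.02 (95% interval -0.37 to 0.41), and the other 4 members lay between -0.10 and 0.05.

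Genes that work beside the members were read from 7 lists with 66 measured genes of 75 written. limma called 0 of the 66 for VPA and 0 for NaBu. The genes named below had the largest limma statistics of their list in these same data, so their intervals and separation from control are descriptions only. Ripk3, Cflar, Tnf, Pmaip1, Birc5 and Usp13 each had an adjusted p of 0.964 with VPA in limma. Over all genes, 34.7% had no overlap between VPA and control arrays, and 23.9% between NaBu and control arrays. The share of all genes below control was 47% with VPA and 45.7% with NaBu, beside which the counts of list genes above and below control are to be read. At an unadjusted p under 0.05 there were 6 for VPA (9.09%, against 4.92% of all genes), 3 higher and 3 lower, and 2 for NaBu (3.03%, against 1.56%), both higher. With the replicate block there were 11 for VPA (16.7%, against 13.2% of all genes) and 4 for NaBu (6.06%, against 4.59%). The median difference of the 66 was -0.04 for VPA and 0.01 for NaBu, against 0.01 for all genes in both comparisons.

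Among the death receptor adaptors and inhibitors, 3 of 9 stood above control with VPA and 6 below, with a median of -0.13. Ripk3, the kinase that drives necroptosis, had log2 values of 9.05 and 8.66 with VPA, 8.54 and 8.64 with NaBu, and 8.36 and 8.37 in control cells. Both compounds lay above both control arrays, and the log2 difference was 0.49 for VPA (95% interval 0.11 to 0.88) and 0.23 for NaBu (95% interval -0.15 to 0.61). Cflar, which encodes the caspase-8 inhibitor FLIP, had log2 values of 5.79 and 6.19 with VPA, 6.32 and 6.34 with NaBu, and 6.51 and 6.42 in control cells. All arrays of both compounds lay below both control arrays, and the log2 difference for VPA was -0.47 (95% interval -0.86 to -0.09). Faim, an inhibitor of Fas-induced death, had a difference of -0.17 with NaBu (95% interval -0.59 to 0.25).

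Of the 9 measured death ligands and other death receptors, 6 stood above control with VPA and 7 with NaBu, with medians of 0.10 and 0.01. With NaBu 2 of the 9 stood above control within both replicate numbers, against 29.1% of all genes. Tnf, the ligand of the tumour necrosis factor receptors, had log2 values of 4.18 and 4.18 with VPA, 4.11 and 3.96 with NaBu, and 3.76 and 3.72 in control cells. Every array of a compound lay above both control arrays, and the log2 difference was 0.44 for VPA (95% interval 0.16 to 0.72) and 0.29 for NaBu (95% interval 0.01 to 0.57). Ngfr, the low-affinity neurotrophin receptor, stood at 0.20 with VPA, with 0.40 within replicate 1 and 0.006 within replicate 2. Tnfsf10, the ligand TRAIL, had log2 values of 3.14 and 3.27 with NaBu, against 2.94 and 2.90 in control cells, a difference of 0.28 (95% interval 0.01 to 0.56). All Tnfsf10 values, and those of Tnf in control cells, lay under the 25th percentile of all genes on their arrays, and the deposited values do not show whether such dim probes are above background. Tnf and Tnfsf10 passed an unadjusted p under 0.05 for NaBu, and neither passed after adjustment.

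Of the 7 other BH3-only genes, 2 stood above control with VPA and 5 below, and the same numbers held for NaBu. Pmaip1, which encodes Noxa, a BH3-only protein that binds Mcl1, had log2 values of 8.21 and 8.35 with VPA, 7.74 and 8.16 with NaBu, and 7.61 and 7.85 in control cells. Both VPA arrays lay above all other arrays, and the log2 difference was 0.55 for VPA (95% interval 0.12 to 0.99) and 0.22 for NaBu (95% interval -0.21 to 0.65). Bik stood at 0.24 with VPA and Bad at -0.19 with NaBu. Within replicates 1 and 2 Bik had 0.44 and 0.04 with VPA, and Bad 0.05 and -0.43 with NaBu. The 3 measured anti-apoptotic relatives, of 6 written, had medians of 0.07 with VPA and 0.08 with NaBu. Bcl2l10 stood at 0.18 and 0.11, and Bcl2a1c at 0.05 and -0.05, in the order VPA, NaBu. The signs within replicates 1 and 2 differed for Bcl2l10 with NaBu (-0.04 and 0.27) and for Bcl2a1c with VPA (0.18 and -0.09), and agreed otherwise. Of the 8 pore-forming and atypical relatives, 2 stood above control and 6 below with each compound, with Bcl2l14 at -0.53 (95% interval -1.13 to 0.07) and the mitochondrial channel gene Vdac1 at -0.21 with VPA, and Vdac2 at 0.09 and Bcl2l15 at -0.14 with NaBu.

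Caspases carry out the final steps, and inhibitor proteins block them. Of 15 apoptosome, caspase and inhibitor genes, 8 stood above control and 7 below with VPA, and 12 above and 3 below with NaBu, with medians of 0.003 and 0.02. With NaBu 6 of the 15 stood above control within both replicate numbers and 2 below, against 29.1% and 23.1% of all genes. Birc5, which encodes survivin, an inhibitor of apoptosis that also acts in mitosis, had log2 values of 7.62 and 7.39 with VPA, 7.67 and 7.47 with NaBu, and 7.91 and 7.80 in control cells. Every array of a compound lay below both control arrays, and the log2 difference was -0.35 for VPA (95% interval -0.69 to -0.01) and -0.29 for NaBu (95% interval -0.63 to 0.05). Xiap, which binds and blocks caspases, stood at -0.25 with VPA (95% interval -0.52 to 0.03). Diablo, which frees caspases from such inhibitors, stood at 0.21 with NaBu.

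Of 15 measured regulators of Bcl2 family expression or stability, 6 stood above control and 9 below with VPA, and 9 above and 6 below with NaBu, with medians of -0.09 and 0.04. Usp13, a deubiquitinase reported to stabilise Mcl1 in human cells, had log2 values of 4.77 and 4.81 with VPA, 5.38 and 5.15 with NaBu, and 5.51 and 5.08 in control cells. Both VPA arrays lay below all other arrays, and the log2 difference for VPA was -0.50 (95% interval -0.92 to -0.08). Foxo1, a forkhead factor, stood at 0.42 with VPA (95% interval -0.04 to 0.88) and 0.19 with NaBu. The cell cycle factor E2f1 stood at 0.16 with NaBu. Within replicates 1 and 2 the NaBu differences were -0.08 and 0.46 for Foxo1 and 0.06 and 0.26 for E2f1.

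**Figure D4:**
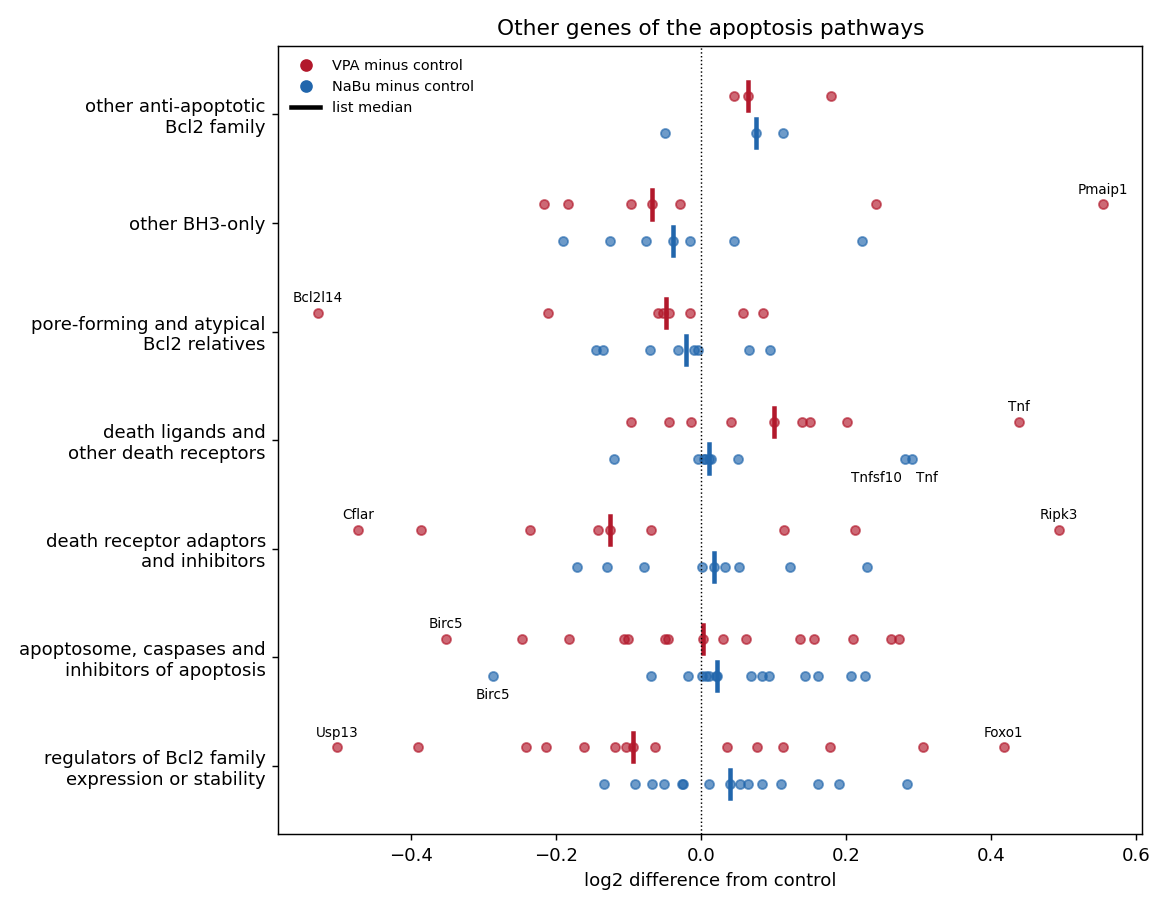
Log2 differences from control for the 66 measured genes of the 7 apoptosis lists, with VPA above NaBu in each row; each point is a gene and each vertical bar the median of the list. Pmaip1 (0.55), Ripk3 (0.49) and Tnf (0.44) stand farthest to the right with VPA, and Bcl2l14 (-0.53), Usp13 (-0.50) and Cflar (-0.47) farthest to the left. The row of pore-forming and atypical relatives also holds the channel genes Vdac1, Vdac2 and Vdac3.

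Likeness of pattern was read over the 6 arrays after the mean of each replicate number was taken away, against the 105 other members, list and marker genes. The closest gene was Mdm4 for Bak1 (Pearson r = 0.978), Apaf1 for Bcl2l11 (r = 0.976), Ripk3 for Fas (r = 0.973) and Bcl2l12 for Bid (r = 0.973). It was Fasl for Bmf (r = 0.941), Col6a1 for Bcl2 (r = 0.916), Tnf for Mcl1 (r = 0.912), Hrk for Bbc3 (r = 0.896) and Bcl2l13 for Bcl2l1 (r = 0.884). These are the highest of 105 values each, from 6 arrays that share treatments and normalization, and they describe these arrays only.

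Markers of the cells themselves were compared with control in the same way as the members. With VPA 11 of 12 pluripotent cell markers stood below control within both replicate numbers, against 28% of all genes, with a median of -0.27. With NaBu 4 of 12 did, against 23.1% of all genes, with a median of -0.03. Pou5f1, which encodes Oct4, stood at -0.64 with VPA (95% interval -0.97 to -0.31) and -0.14 with NaBu. Utf1 stood at -0.59 with VPA and Sox2 at -0.18 with NaBu, the latter with 0.01 and -0.38 within replicates 1 and 2. The markers named here were chosen by the same rule as the list genes. Pou5f1 and Utf1 each had an adjusted p of 0.964 with VPA in limma. Of the 19 fibroblast markers, 10 stood above control with VPA and 17 with NaBu, with medians of 0.01 and 0.16. Within both replicate numbers 2 stood above control with VPA, against 32% of all genes, and 12 with NaBu, against 29.1%. The mean difference of the fibroblast markers with VPA was -0.17 within replicate 1 and 0.19 within replicate 2. S100a4 stood at -0.47 and Thy1 at 0.21 with VPA, and Acta2 at 0.28 and Tagln at 0.30 with NaBu. Within replicates 1 and 2 the VPA differences changed sign, with -1.11 and 0.16 for S100a4 and 0.49 and -0.07 for Thy1. The NaBu differences were 0.33 and 0.24 for Acta2 and 0.54 and 0.06 for Tagln. The part of a shift in cell state or in feeder RNA in the values of the members was not tested.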

How the data were processed

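Total RNA of 6 samples was hybridised to one-colour Affymetrix arrays. The authors deposited log2 values, a column for each array and a row for each probeset. Per the submitters' processing notes, RMA was run in Affymetrix Expression Console 1.1, and neither its settings nor a genome build is given in the sources used here. Of 35556 probesets, 21789 carried a single gene symbol, and the highest-mean probeset stood for a gene, which left 19938 genes.

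A linear model with 1 mean per group and 3 residual degrees of freedom was fitted with limma 3.58.1 (R 4.3.3, lmFit, then eBayes with no trend). Benjamini-Hochberg adjustment was over all genes. The fit was tried on simulated data with no replicate effect and with differences far larger than those of the members. That run does not show whether differences of the members' size would be called. An exact two-sided permutation test of 2 against 2 arrays cannot go below p = 0.333 and was not used. The number of arrays limits the precision. Deviations of same-numbered arrays from their group means correlated over all genes (r = 0.558 for VPA and control, 0.693 for NaBu and control, 0.567 for VPA and NaBu). From these values and not from the labels, the replicate numbers were taken to pair the samples in the differences within replicate numbers and in the blocked fit. The main fit and its intervals left this pairing out. Alternatives were a replicate block, median centring, quantile normalization, 2 filters on dim genes, the mean of probesets, a trended robust fit and leaving out each array.

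The members, gene lists and tests were chosen with earlier results of these data known. Named genes were all members and, per list, the 2 genes with the largest moderated statistic for each compound. Promoter sequences came from RefSeq (GRCm38.p6).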

Additional observations from a re-analysis of the deposited data

How the results depend on the processing

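No alternative called a gene: limma gave 0 genes and 0 members at an adjusted p under 0.05 in the 3 comparisons under all 13 alternatives. With the replicate block, 2 residual degrees of freedom remained and the smallest adjusted p of a member was 0.315 (Bak1, VPA against control). At an unadjusted p under 0.05 the blocked fit held 2636 genes for VPA, 916 for NaBu and 2150 for VPA against NaBu, and the fit without the block 981, 311 and 724. The blocked 95% intervals for VPA against control were -0.64 to -0.04 for Bak1, 0.03 to 0.55 for Fas and 0.0003 to 0.58 for Bcl2l11. Median centring turned the sign of VPA against NaBu for Bbc3 (-0.012) and Bmf (-0.022).

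Leaving out 1 array of the groups compared turned a sign in 20 of 108 member differences, none of which passed the test. For VPA against control the ranges were -0.0091 to 0.16 for Bcl2, -0.030 to 0.19 for Bcl2l1, -0.030 to 0.0031 for Bmf and -0.28 to 0.0004 for Bid. For NaBu against control they were -0.0034 to 0.053 for Bcl2, -0.030 to 0.15 for Mcl1, -0.12 to 0.092 for Bak1, -0.091 to 0.043 for Bmf, -0.19 to 0.10 for Bid and -0.027 to 0.18 for Fas. For VPA against NaBu they were -0.034 to 0.14 for Bcl2, -0.16 to 0.06 for Bcl2l1, -0.16 to 0.20 for Bbc3, -0.19 to 0.27 for Bcl2l11 and -0.057 to 0.077 for Bmf, and for Bid, which kept its sign, -0.18 to -0.011. In these fits a lone array was assumed to vary like the other groups. Fas and Bcl2 fell below the median level of all genes and had no value under that filter.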
